A study of Mus musculus with 19 samples.

Results

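The genes of the proteasome, the protease that degrades proteins tagged with ubiquitin, were measured in the CA1 region of the hippocampus of young and old mice. Members were the protein-coding genes named Psma to Psmg with a number, other than Psmb8 and Psmb9, with 5 or more reads in 10 or more of the 19 libraries. The count files held 48 symbols of this form, and 45 of them were members, out of 19286 genes that passed the same read filter and 48709 annotated genes. Psmb8 and Psmb9 were left out by the rule, and Psmb11, the beta subunit of the thymus, had 55 reads in all libraries together and did not pass the filter.

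All 3 groups were male wild-type C57B/6J mice whose dorsal hippocampus had been injected on both sides with lipid nanoparticles. The paper trained mice injected in this way in a water maze. Whether the sequenced mice were trained is not stated in the sources used here. Young mice were 3 months old and received control oligonucleotides (n = 6), old control mice were 16.5 months old and received the same control (n = 6), and old anti-miR-mix mice were 16.5 months old and received a mixture of inhibitors of miR-148a-3p, miR-146a-5p and miR-181a-5p (n = 7). No group was left without an injection, so the values of all groups include whatever the procedure does to the tissue. Polyadenylated RNA of the whole microdissected CA1 tissue was sequenced, and the comparisons ask whether proteasome transcripts differ with age and with the inhibitors. The labels number the libraries within a group without tying each number to an animal, so that p-values measure the spread between these libraries.

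The 20S core particle is a barrel of alpha rings on the outside and beta rings on the inside, and the beta subunits Psmb5, Psmb6 and Psmb7 carry its proteolytic sites. The 19S regulatory particle caps the barrel, recognises ubiquitin and unfolds the substrate with a ring of ATPases, and dedicated chaperones help to assemble both particles. Interferon-induced subunits (Psmb8, Psmb9 and Psmb10) can replace the catalytic ones to form the immunoproteasome, which in the brain is best known from microglia. Neurons use proteasomes at synapses, where protein turnover contributes to plasticity.

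The inhibited microRNAs are shown first, because their seeds decide which members carry a matching site. The mature sequences were taken from RefSeq (GRCm38.p6), with the seed (bases 2 to 8) in capitals.
miR-146a-5p: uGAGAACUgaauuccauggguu
miR-148a-3p: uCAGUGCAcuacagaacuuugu
miR-181a-5p: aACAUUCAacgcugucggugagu
The 3 seeds differ from each other. miR-146a-5p is encoded at chr11:43374435-43374456 (minus strand), miR-148a-3p at chr6:51269829-51269850 (minus strand), and miR-181a-5p at 2 loci, of which chr1:137966468-137966490 (plus strand) is given here.

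A stretch complementary to the whole seed, on the strand of the transcript, was searched. The letters were AGTTCTC for miR-146a-5p. The miR-148a-3p seed gave TGCACTG, and the miR-181a-5p seed gave TGAATGT. Such a stretch lay in the longest annotated 3′ untranslated region (3′UTR) of 8 of the 45 members, and each of the 8 matched 1 microRNA. Some sites lie far into a long 3′UTR, such as that of Psma3 at base 1793 of 1952. Whether the tissue expresses the transcript with the site was not examined. The site (capitals) and the bases around it are shown for 1 or 2 members per microRNA, namely those with the values described further on.
Psmd11, miR-146a-5p, chr11:80471861-80471867, plus strand: gataggcggccAGTTCTCatgtaatccgt
Psmd13, miR-148a-3p, chr7:140898226-140898232, plus strand: tggagctttggTGCACTGatgtgaagagc
Psmf1, miR-181a-5p, chr2:151716280-151716286, minus strand: ttttaagtcatTGAATGTatctggaatgg
Psma3, miR-181a-5p, chr12:70996188-70996194, plus strand: tgaaaatgtctTGAATGTgtagttttcta
The other holders were Psmd3 for miR-146a-5p, Psmd8 for miR-148a-3p, and Psmb4 and Psma2 for miR-181a-5p. Sites were less frequent in the members than in the 15351 tested genes that have an annotated 3′UTR. For miR-146a-5p, 4.44% of members and 12.4% of tested genes held one. The shares were 4.44% and 14.9% for miR-148a-3p, and 8.89% and 18.1% for miR-181a-5p. The members' 3′UTRs were also shorter, with a median of 294 bases against 1165 bases over the tested genes, and the shares were not adjusted for length. A match is a description of sequence and not a measured site.

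Depth ran from 26653511 to 38908947 gene-assigned reads per library. All 7 CA1 pyramidal markers were detected, with a summed level of 850 to 1212 CPM (reads of a gene relative to library size) over the libraries. Summed microglial markers (12 genes) were at 422 to 552 CPM in young, 536 to 624 in old control and 630 to 864 in old anti-miR-mix libraries, so that old anti-miR-mix libraries all lay above the others. The deposited log2 values carry a whole number from 1 to 4 per library, called the processing group here and of unstated origin, and group 3 held 2 young, 3 old anti-miR-mix and 0 old control libraries. Old control replicates 5 and 6 were closer to each other than any other pair (chi-square per degree of freedom 2.18 over 12780 genes, next lowest 6.10, with 1 for counting noise alone). Over the 44 members with enough reads the same pair stood at 1.71 and was not the closest, since the other pairs ran from 1.05 to 11.6 with a median of 3.16.

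Most members were abundant. Levels between genes were compared per length, as log2 RPKM (reads scaled to exonic length and library size). Psmc5, an ATPase of the 19S base, had the highest level (6.38 log2 RPKM on average, range 6.29 to 6.48 over 19 libraries), followed by the alpha ring subunit Psma6 (5.79, range 5.61 to 5.88). The 33 genes of the core and of the 19S particle had a median of 4.48, and 25 of them lay within 1 log2 unit of it, against a median of 1.65 over all genes tested. The ATPases led with a median of 5.24, ahead of the 19S non-ATPase subunits (4.53), the beta ring (4.25) and the alpha ring (4.12). Genes whose products do not stay in the particle were lower. The 20S assembly chaperones had a median of 2.72 and the 19S assembly chaperones of 2.84, and Psmf1, which encodes the inhibitor PI31, was at 2.42.

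Neighbours in the order of levels mostly could not be separated. Of 44 pairs of neighbours, 5 did not overlap over the libraries, namely Psmc5 over Psma6, Psmd4 over Psma1, Psme2 over Psmd9, Psmd9 over Psmg3 and Psmg3 over Psma8. The low end was set by Psmg3, a chaperone of the alpha ring, at 0.88 log2 RPKM and by Psma8 at -2.84. Psma8 encodes the alpha subunit of the testis, and its 3 to 21 reads per library make it the single member near the read filter. Among the activators, Psme3 of the nuclear PA28 gamma ring was high (5.17), whereas Psme1 (3.56) and Psme2 (2.22), which form the interferon-inducible PA28 alpha/beta ring, were lower. Several members share exonic bases with another gene, and strand use in counting was not stated. For Psmd9 the antisense Gm26745 covers 25.5% of the exonic length, for Psmb7 the opposite gene Nek6 covers 11.8%, and for Psmg3 the same-strand Gm26938 covers 9.68%.

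**Figure D1:**
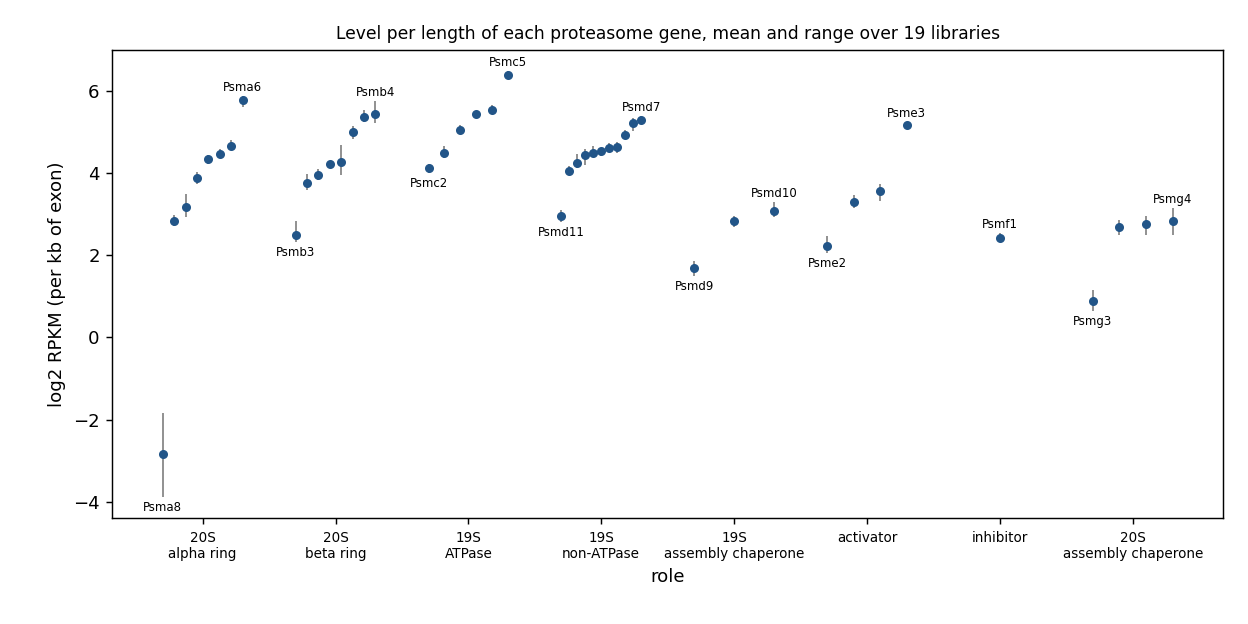
Mean level per length of the 45 proteasome genes (log2 RPKM, points) with the range over 19 libraries (lines), by role; the highest and lowest gene of each role is named. Core and 19S genes sit mostly between 4 and 6, the assembly chaperones, Psmf1 and Psme2 lie lower, and Psma8 stands apart at -2.84.

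The share of reads that fell in the members was alike in the 3 groups. It was 0.262% ± 0.0023 in young libraries (SD, n = 6, range 0.259% to 0.265%). In old control it was 0.259% ± 0.0047 (SD, n = 6, range 0.252% to 0.264%), and with the inhibitors 0.261% ± 0.0083 (SD, n = 7, range 0.252% to 0.275%). The 3 ranges overlap, and the widest was that of the old anti-miR-mix libraries. In bulk tissue, fewer cells of a type and less RNA per cell cannot be told apart.

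Single members varied little between libraries of a group. The median within-group SD of log2 CPM was 0.069 over the members and 0.15 over all genes tested, at a median level of 5.93 log2 CPM for members and 3.60 for all genes. The steadiest was Psme3 (SD 0.038), and the ATPases were the steadiest role (median SD 0.054, range 0.048 to 0.077). The exceptions were 9 members with an SD over 0.12. These were Psma8 (0.51), the catalytic Psmb5 (0.19), the chaperones Psmg4 (0.16), Psmg3 (0.14) and Psmg2 (0.13), and Psmb4, Psma5, Psmb3 and Psmb10 (0.14, 0.13, 0.12 and 0.12).

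In some libraries most members lay on the same side of their median. In old anti-miR-mix replicate 1, 36 of the 45 members lay above their own median over all libraries, against 6 in replicate 2 and 5 in replicate 7 of the same group. Among old control libraries the count ran from 10 (replicate 4) to 32 (replicate 5), and in young libraries from 18 to 30. The low libraries (old anti-miR-mix 2 and 7, old control 4) all carried processing group 2, but so did young replicate 2 with 30 members above and old control replicate 3 with 20. Summed astrocyte markers were at 7782, 7168 and 7125 CPM in the 3 low libraries and at 6127 CPM in old anti-miR-mix replicate 1, with a range of 5953 to 7782 over all libraries. Old anti-miR-mix replicates 4 and 5 were as high (7248 and 7136 CPM) with 21 and 18 members above, and young replicate 6 was the lowest with 19. Summed CA1 pyramidal markers were at 880, 957 and 1005 CPM in the 3 low libraries and at 1156 CPM in old anti-miR-mix replicate 1. In old anti-miR-mix replicate 4 they were lower still (850 CPM), with 21 members above. The part of the processing group and of the RNA of these or other cell types in this pattern was not tested.

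**Figure D2:**
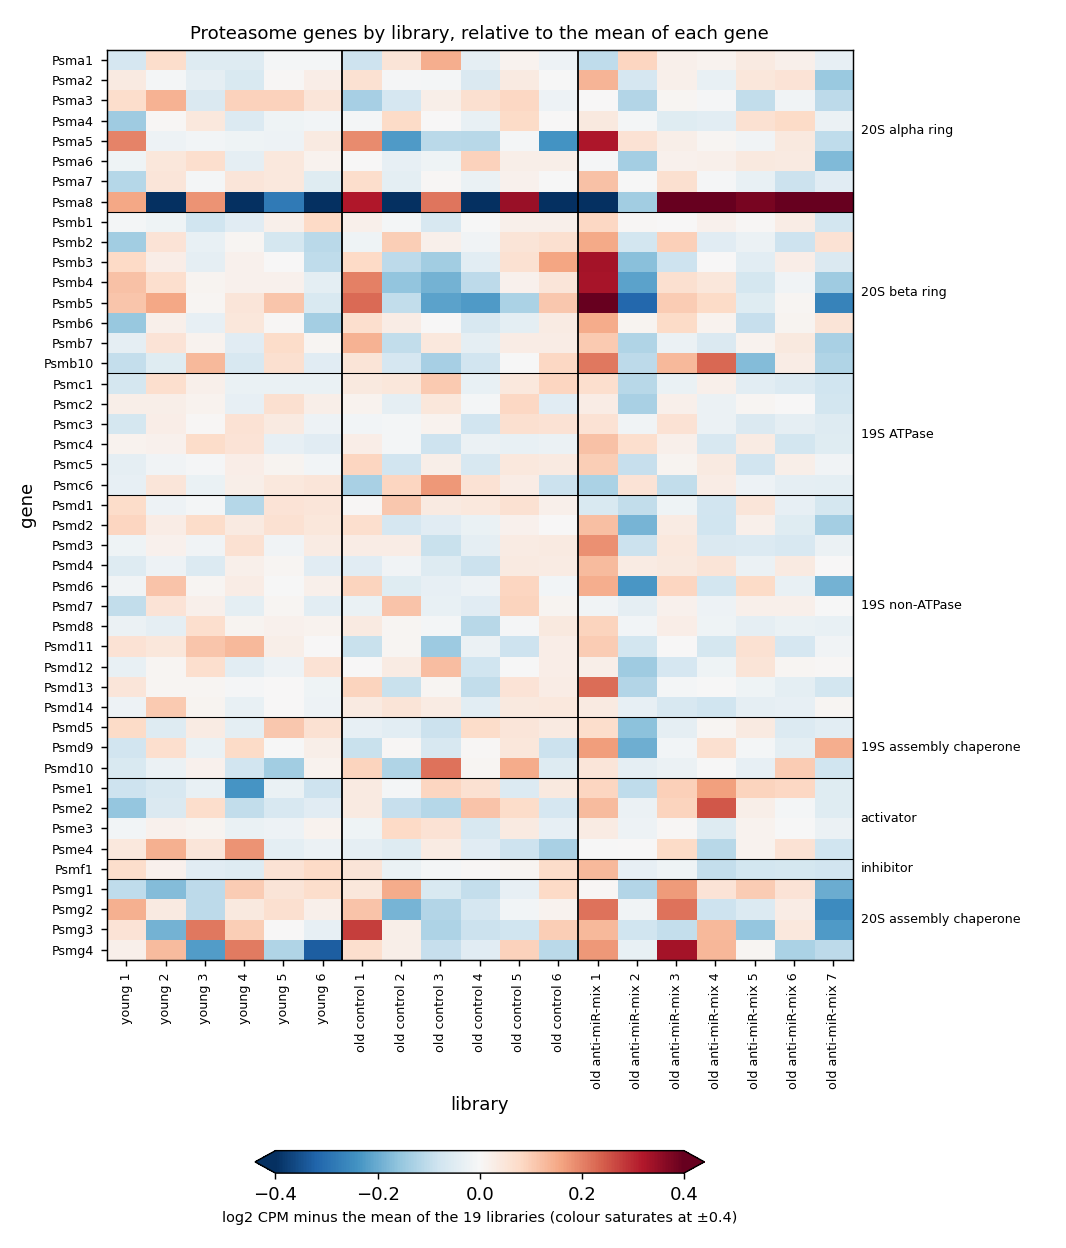
Log2 CPM of each proteasome gene in each library, minus the mean of that gene over the 19 libraries (colour, saturating at ±0.4), ordered by role (rows) and group (columns). Old anti-miR-mix replicate 1 is high for most genes (36 of 45 above their median) and replicates 2 and 7 are low, whereas no row changes colour as a block between groups.

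To examine the effect of age, old control was compared with young. No member passed the test. In edgeR's quasi-likelihood test, 0 of 45 members passed a Benjamini-Hochberg adjusted p of 0.05, where 2.67% of all genes tested did. An unadjusted p under 0.05 was reached by 3 members, against 18.1% of all genes, and DESeq2 also called 0 and gave an unadjusted p under 0.05 for 3. No member had values that did not overlap between the groups, whereas 2.54% of all genes did. The members' log2 fold changes split into 25 above and 20 below 0, with a median of 0.0056 beside 0.0064 over all genes, and their median absolute log2 fold change was 0.032 beside 0.089.

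The intervals show how large a difference could have been missed. For 42 of the 45 members the whole 95% interval of the old control against young difference lay within 0.25 log2 units of 0, a rise of 18.9% or a fall of 15.9%. The other 3 were Psma5, Psmb5 and Psma8. At 0.35 log2 units only Psma8 lay outside. The median distance from the estimate to the end of its interval was 0.086 for members and 0.17 for all genes, so that the members were measured more finely than most genes. By role, the median log2 fold change was 0.0092 in the alpha ring, 0.0068 in the beta ring, 0.0043 in the ATPases and -0.0056 in the 19S non-ATPase subunits, and no role had a member past the adjusted threshold.

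The members with the smallest unadjusted p were subunits outside the core. Psmd11, a scaffold subunit of the 19S lid (chr11:80428615-80473248), was at 5.64, 5.69 and 5.77 log2 CPM in young (lowest, median, highest) and at 5.50, 5.59 and 5.67 in old control libraries. The 2 ranges overlap over a narrow stretch. The log2 fold change was -0.11 ± 0.038 (SE), with an unadjusted p of 0.00798 and an adjusted p of 0.117 in edgeR. Psme4, which encodes the activator PA200 (chr11:30771726-30880361), was at 6.32, 6.40 and 6.54 in young and at 6.23, 6.31 and 6.39 in old control libraries. Its log2 fold change was -0.11 ± 0.042 (SE, edgeR unadjusted p 0.0142, adjusted p 0.155). Psme1, the alpha subunit of PA28 (chr14:55578123-55581529), leaned the other way, at 4.47, 4.64 and 4.68 in young and 4.65, 4.75 and 4.79 in old control libraries. Its log2 fold change was 0.11 ± 0.047 (SE, edgeR unadjusted p 0.0246, adjusted p 0.197), and its lowest young value stood apart from the other 5. Psmb2, a structural beta subunit, had the next smallest p among the higher members (log2 fold change 0.081 ± 0.043 SE, edgeR unadjusted p 0.0743, adjusted p 0.328).

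Within processing groups that held both ages, the differences in mean log2 CPM kept their sign for Psmd11, Psme4 and Psme1. They were -0.098, -0.13 and -0.041 for Psmd11 in groups 1, 2 and 4, and -0.085, -0.15 and -0.075 for Psme4. For Psme1 they were 0.098, 0.14 and 0.045. Each rests on 3 or 4 libraries. For Psmd11 the adjusted p reached 0.0491 (log2 fold change -0.13) when the authors' deposited log2 values were tested with limma, which was the 1 alternative that called a member with age.

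To examine the effect of the inhibitors, old anti-miR-mix was compared with old control. Again 0 of 45 members passed the adjusted threshold in edgeR, where 0.669% of all genes did. An unadjusted p under 0.05 was reached by 3 members, against 10.5% of all genes, while DESeq2 called 0 and gave 2 members an unadjusted p under 0.05. None of the 45 had separate ranges in the 2 groups, against 0.498% of all genes. A total of 19 members lay above and 26 below 0. The median log2 fold change was -0.0055, beside 0.00035 over all genes, and the median absolute value was 0.036 beside 0.067. For 41 members the 95% interval lay within 0.25 log2 units of 0, and for 44 within 0.35.

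The ATPases and the 19S non-ATPase subunits lay mostly below 0 (5 of 6 and 8 of 11, medians -0.024 and -0.022) and the beta ring mostly above (6 of 8, median 0.020), and these shifts of a whole role were not tested. Psmd1, the largest scaffold subunit of the 19S base (chr1:86064387-86139151), was at 6.93, 6.96 and 7.03 log2 CPM in old control and at 6.83, 6.86 and 6.97 in old anti-miR-mix libraries. The log2 fold change was -0.088 ± 0.033 (SE, edgeR unadjusted p 0.0141, adjusted p 0.31). Psmc1, an ATPase of the same base (chr12:100110154-100123405), was at 6.47, 6.54 and 6.60 in old control and at 6.38, 6.45 and 6.56 in old anti-miR-mix libraries, with a log2 fold change of -0.080 ± 0.033 (SE, edgeR unadjusted p 0.0223, adjusted p 0.366). For both genes the upper part of the old anti-miR-mix range overlaps the old control range. Within processing groups 1, 2 and 4 the difference in mean log2 CPM was -0.12, -0.12 and -0.075 for Psmd1, and 0.024, -0.14 and -0.12 for Psmc1. Psmd4, a ubiquitin receptor, had the smallest p of the higher members after Psma8, at 0.059 ± 0.029 (SE, edgeR unadjusted p 0.0598, adjusted p 0.502).

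Psma8 had by far the largest fold change and the least evidence behind it. It had 3, 7.5 and 14 reads (lowest, median, highest) in old control and 5, 13 and 21 in old anti-miR-mix libraries, and young libraries held 4, 7 and 11. The log2 fold change was 0.67 ± 0.31 (SE, edgeR unadjusted p 0.0384, adjusted p 0.442), and its 95% interval ran from 0.040 to 1.31. The groups overlap, and 1 read is a large step at this depth.

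**Figure D3:**
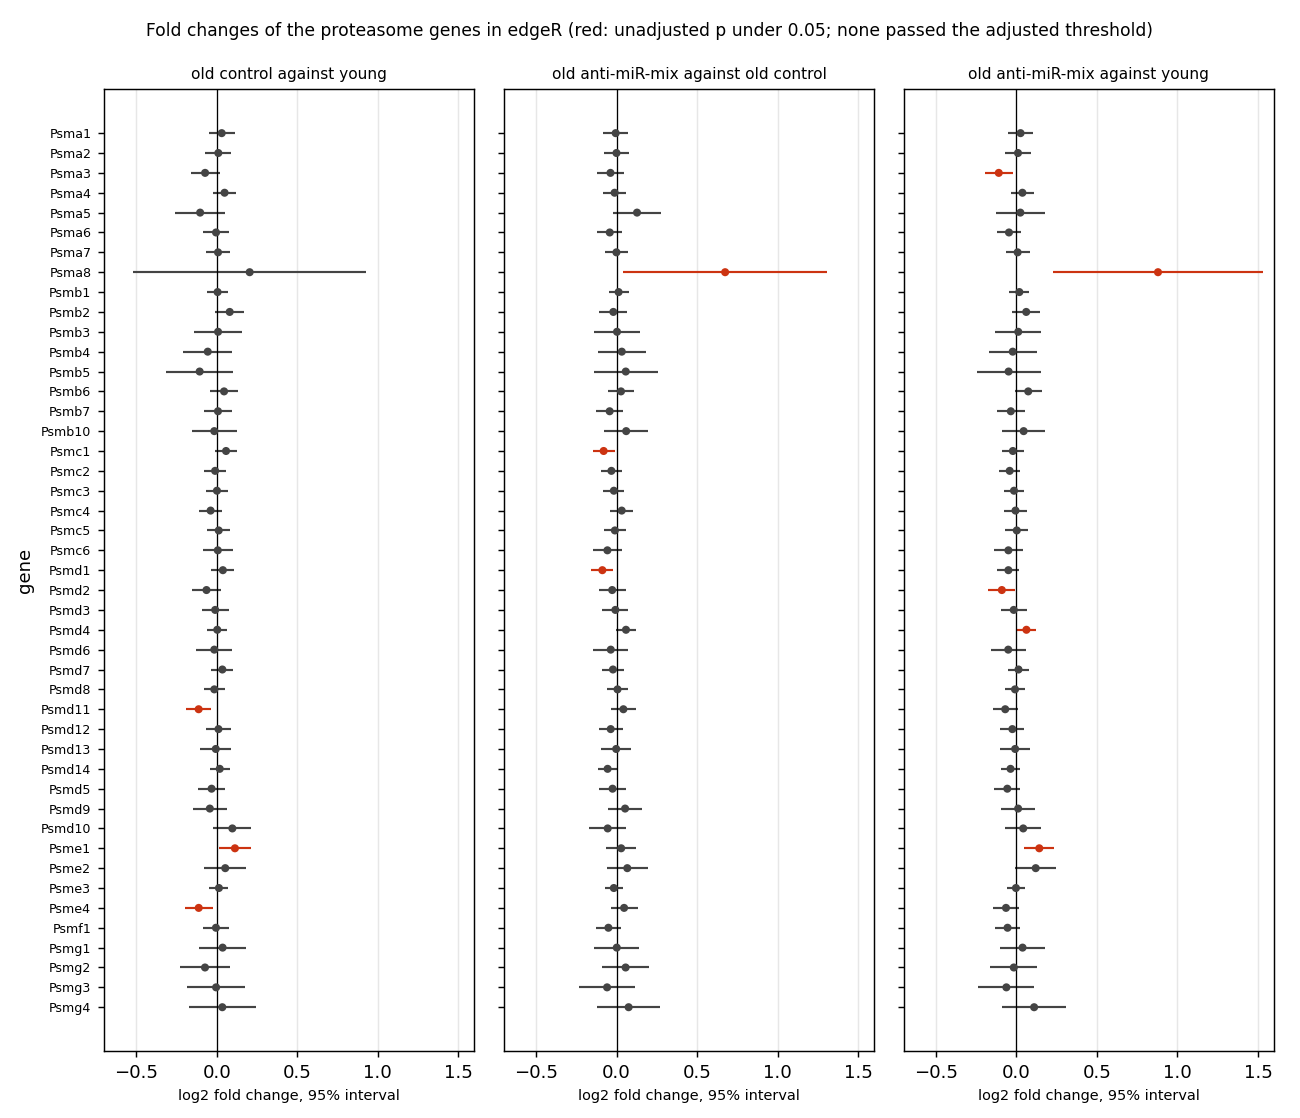
Log2 fold change (points) and 95% interval (lines) of the 45 proteasome genes in the 3 comparisons, from edgeR with all libraries in 1 fit; red marks an unadjusted p under 0.05. Apart from Psma8, all intervals lie within 0.35 of 0, and no gene passed the adjusted threshold.

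Old anti-miR-mix was also set against young, which combines both differences and shares libraries with the other comparisons. Here 0 of 45 members passed in edgeR, where 6.20% of all genes did, and DESeq2 called 0 as well. An unadjusted p under 0.05 was reached by 5 members, against 19.6% of all genes, and by 4 in DESeq2. No member had separate ranges, against 2.42% of all genes. The median log2 fold change was -0.0080 (20 above and 25 below 0), beside 0.0028 over all genes, and 43 members had a 95% interval within 0.25 log2 units of 0.

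Psme1 came nearest to the threshold. Its values in old anti-miR-mix libraries were 4.61, 4.79 and 4.87 log2 CPM, against 4.47, 4.64 and 4.68 in young libraries. The log2 fold change was 0.14 ± 0.045 (SE), with an unadjusted p of 0.00482 and an edgeR adjusted p of 0.0662. The 2 old anti-miR-mix libraries that fell inside the young range were replicates 2 and 7. Without replicate 2 its edgeR adjusted p was 0.0237 and without replicate 7 it was 0.0444. It was not called with all libraries, and no other alternative called it. Its partner Psme2 (chr14:55587441-55591113) was at 2.88, 2.97 and 3.10 in young and at 2.99, 3.06 and 3.28 in old anti-miR-mix libraries, with a log2 fold change of 0.12 ± 0.061 (SE, edgeR unadjusted p 0.0617, adjusted p 0.284). In processing groups 1 to 4 the difference in mean log2 CPM for Psme1 was 0.17, -0.012, 0.25 and 0.14.

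The remaining members with an unadjusted p under 0.05 were spread over the particle. Psma3, an alpha ring subunit (chr12:70974621-70996347), was at 4.75, 4.89 and 4.94 in young and at 4.69, 4.79 and 4.81 in old anti-miR-mix libraries. The difference was -0.11 ± 0.041 (SE, edgeR unadjusted p 0.0150, adjusted p 0.130). Psmd2, the other large scaffold of the 19S base (chr16:20651652-20663414), was at 7.26, 7.28 and 7.31 in young and at 7.04, 7.18 and 7.35 in old anti-miR-mix libraries. Its old anti-miR-mix range encloses the young range, and its difference was -0.091 ± 0.040 (SE, edgeR unadjusted p 0.0356, adjusted p 0.212). Psmd4 stood at 0.062 ± 0.029 (SE, edgeR unadjusted p 0.0469, adjusted p 0.246). Psma8 stood at 0.88 ± 0.31 (SE, edgeR unadjusted p 0.0103, adjusted p 0.105), and without old anti-miR-mix replicate 1 its log2 fold change of 1.01 reached an edgeR adjusted p of 0.0388.

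The catalytic subunits were examined one by one. Psmb5, which carries the chymotrypsin-like site (chr14:54614119-54618022), was at 4.06, 4.20 and 4.28 log2 CPM in young, 3.90, 4.01 and 4.35 in old control and 3.81, 4.13 and 4.53 in old anti-miR-mix libraries. Both old ranges enclose the young one, and the 95% interval of its log2 fold change ran from -0.31 to 0.10 with age and from -0.14 to 0.26 with the inhibitors. Psmb6, with the caspase-like site (chr11:70525367-70527858), was at 5.75, 5.88 and 5.94 in young, 5.83, 5.91 and 5.97 in old control and 5.81, 5.91 and 6.05 in old anti-miR-mix libraries. Psmb7, with the trypsin-like site (chr2:38588036-38644087), was at 5.69, 5.75 and 5.81, at 5.64, 5.77 and 5.88, and at 5.61, 5.71 and 5.84 in the same order. Its 95% interval ran from -0.081 to 0.097 with age and from -0.13 to 0.043 with the inhibitors. For Psmb6 and Psmb7 the medians of the 3 groups differ by less than the range within any group.

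The inducible subunits were examined in the same way, and of these Psmb9 passed the test, in 1 comparison. Psmb10, the inducible form of Psmb7 and a member (chr8:105935735-105938444), was at 4.43, 4.48 and 4.65 log2 CPM in young, 4.39, 4.49 and 4.61 in old control and 4.35, 4.55 and 4.75 in old anti-miR-mix libraries, and its log2 fold change with the inhibitors was 0.060 ± 0.065 (SE, edgeR adjusted p 0.816). Psmb9, the inducible form of Psmb6 that the rule leaves out (chr17:34181987-34187764), was at 0.78, 0.94 and 1.48 in young, 0.79, 1.32 and 1.95 in old control and 1.24, 1.65 and 2.30 in old anti-miR-mix libraries. It rose in old anti-miR-mix against young, with a log2 fold change of 0.79 ± 0.21 (SE, edgeR adjusted p 0.0256), although the ranges overlap. The steps on the way did not pass, at 0.31 ± 0.22 with age (SE, edgeR adjusted p 0.499) and 0.48 ± 0.20 with the inhibitors (SE, edgeR adjusted p 0.398). The call for Psmb9 was lost (edgeR adjusted p between 0.0507 and 0.0646) without young replicate 1, 2 or 6 or without old anti-miR-mix replicate 3 or 4, and 44 to 189 reads per library stood behind it. Within processing groups 1 to 4 the difference of old anti-miR-mix from young in mean log2 CPM was 0.87, 0.78, 0.77 and 0.29. Neither step kept its sign in groups 1, 2 and 4. The differences were 0.62, 0.845 and -0.144 with age, and 0.254, -0.0655 and 0.436 with the inhibitors. Psmb8, the inducible form of Psmb5 (chr17:34197721-34201454), stood at 0.56 ± 0.21 in the same comparison (SE, edgeR adjusted p 0.123). Psmb9 shares 5.79% of its exonic length with Tap1 on the opposite strand, and Psmb8 shares 14.7% with the antisense Gm20496.

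Set against the constitutive subunit it replaces, each inducible subunit was compared per length. In young libraries the log2 ratio of Psmb9 to Psmb6 averaged -5.81 ± 0.26 (SD, n = 6). It averaged -5.59 ± 0.45 in old control (SD, n = 6) and -5.15 ± 0.44 with the inhibitors (SD, n = 7). In the same order Psmb8 to Psmb5 gave -4.45 ± 0.46, -4.17 ± 0.46 and -3.83 ± 0.51, and Psmb10 to Psmb7 gave -0.23 ± 0.074, -0.25 ± 0.083 and -0.16 ± 0.15. Per length, the constitutive transcript therefore exceeded Psmb9 and Psmb8 by several log2 units in every library, while Psmb10 was close to Psmb7. The length was all annotated exonic bases, 1705 for Psmb10 and 3421 for Psmb7. In log2 CPM Psmb10 lay lower, with means of 4.51, 4.50 and 4.55 against 5.75, 5.76 and 5.71 for Psmb7 in the same order. The groups overlap in all 3 ratios, which are given as a description.

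Microglial markers were higher in the old anti-miR-mix libraries, in which Psmb9 was higher than in young libraries. In edgeR, 1 of 12 microglial markers was called higher with age (Cx3cr1), 7 with the inhibitors and 11 in old anti-miR-mix against young, and 0 were lower. The share of all genes called in either direction was 2.67%, 0.669% and 6.20% in these comparisons. Of 10 interferon response genes 0 were called in each of the 3 comparisons, and their summed level ranged from 55.1 to 152 CPM in young, 55.0 to 102 in old control and 72.7 to 218 in old anti-miR-mix libraries. No marker of either list was at 0 in any group. The part of microglial RNA in the Psmb9, Psmb8 and Psme1 values was not tested.

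**Figure D4:**
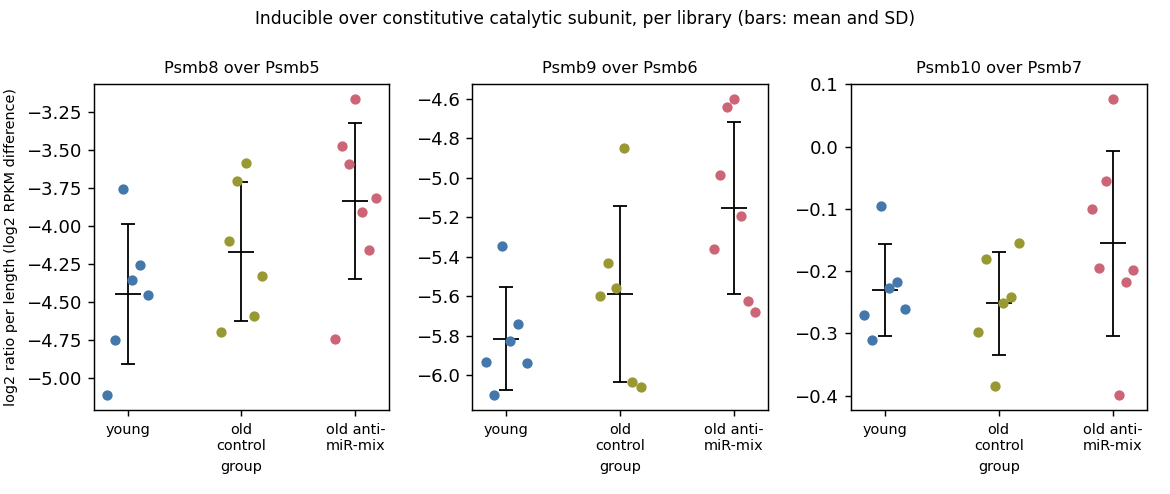
Log2 ratio per length of each inducible catalytic subunit to the constitutive subunit it replaces, 1 point per library, with the mean and SD of each group (bars). Psmb9 over Psmb6 runs from a mean of -5.81 in young to -5.15 in old anti-miR-mix libraries with overlapping points, and Psmb10 over Psmb7 stays near -0.2.

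The members that carry a seed match were set beside those that do not, since inhibition of a microRNA would act through such sites. The 8 holders had log2 fold changes from -0.051 to 0.042 in old anti-miR-mix against old control, with a median of -0.0014. The other 37 ranged from -0.088 to 0.67, with a median of -0.010. Psmd11, whose miR-146a-5p site is followed by an A, had the highest value of the holders (0.042 ± 0.037 SE, edgeR unadjusted p 0.263). Psmf1, with a miR-181a-5p site also followed by an A, had the lowest (-0.051 ± 0.038 SE, edgeR unadjusted p 0.192). Psmd13 (miR-148a-3p) stood at -0.0024 ± 0.044 (SE) and Psma3 (miR-181a-5p) at -0.038 ± 0.042 (SE). All 8 holders had an unadjusted p over 0.05. The difference between holders and others was not tested.

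Proteasome genes are known to be induced together by Nfe2l1 (also called Nrf1) when proteasome activity falls, through antioxidant response elements in their promoters. The letters TGACNNNGC were searched on both strands in the 250 bases before the RefSeq start (GRCm38.p6). They were found in 5 of the 37 members with an entry (13.5%), against 13.7% of 13128 tested genes and 10.2% of all 32851 windows, so the members' share was near the background. The match in the catalytic subunits Psmb5 and Psmb6 is shown in capitals, with the bases around it on the strand of the gene.
Psmb5, chr14:54618018-54618058, minus strand: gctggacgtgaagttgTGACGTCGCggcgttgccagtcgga
Psmb6, chr11:70525332-70525356, plus strand: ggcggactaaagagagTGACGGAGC
The other 3 holders were Psmc6, Psmd12 and Psmd9. A match is a description of letters and not a bound site.

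Other genes of the pathway were taken from a list of ubiquitin and proteasome genes, of which 30 of 31 names were tested. With age 0 were higher and 1 was lower, with the inhibitors 1 was higher and 0 lower, and in old anti-miR-mix against young 1 was higher and 1 lower. Over all genes tested, the share called in either direction was 2.67%, 0.669% and 6.20% in the same order. Nfe2l1, the main transcriptional activator of proteasome genes, was abundant (6.07 log2 RPKM) and stood at 0.028 ± 0.029 with age and -0.042 ± 0.028 with the inhibitors (SE). The proteasome maturation protein Pomp stood at 0.022 ± 0.039 and 0.018 ± 0.037, the ubiquitin receptor Adrm1 at 0.0042 ± 0.099 and -0.027 ± 0.096, and the small lid subunit Sem1 at 0.019 ± 0.036 and -0.021 ± 0.035 (log2 fold change ± SE in the same order). None of these passed the adjusted threshold in edgeR.

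Those that passed were Uba6 and Nfe2l2. Uba6, an activating enzyme for ubiquitin and for the ubiquitin-like protein FAT10, was at 4.99, 5.10 and 5.23 log2 CPM in young, 4.65, 4.83 and 4.93 in old control and 4.63, 4.87 and 5.08 in old anti-miR-mix libraries. Its young and old control ranges are separate, and it fell with age by 0.30 on the log2 scale (SE 0.065, edgeR adjusted p 0.0162) and by 0.25 in old anti-miR-mix against young (SE 0.062, edgeR adjusted p 0.0181). The second call was lost without young replicate 4 (edgeR adjusted p 0.0503) or 6 (0.0518). Nfe2l2, the transcription factor of the oxidative stress response also called Nrf2, was at 4.20, 4.51 and 4.68 in young, 4.32, 4.45 and 4.78 in old control and 4.56, 4.96 and 5.04 in old anti-miR-mix libraries. It rose by 0.37 ± 0.085 (SE) with the inhibitors (edgeR adjusted p 0.0433) and by 0.37 ± 0.085 (SE) against young (edgeR adjusted p 0.00877). The call with the inhibitors was lost without young replicate 2, 5 or 6, old control replicate 1, 2, 5 or 6, or old anti-miR-mix replicate 2, 3, 4, 5 or 7 (edgeR adjusted p 0.0543 to 0.132). It was also lost with processing group as a factor (0.25, edgeR adjusted p 0.116), whereas the call against young held in all these fits. Within processing groups 1, 2 and 4 the difference of the old groups in mean log2 CPM was 0.18, 0.24 and 0.32. The summed microglial level was higher in the same libraries, and its part in the Nfe2l2 value was not tested.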

How the data were processed

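Per the study's methods and the submitters' processing notes, the authors checked reads with FastQC 0.11.5, aligned them to mm10 with STAR 2.5.2b and counted reads per gene with featureCounts (Subread 1.5.1); the annotation release, strand and multi-mapping options are not given in the sources used here. The authors deposited raw counts for each of 19 libraries and a table of log2 values (log2(CPM + 1) of 18761 genes, minus a slope times the processing group). From the counts, TMM factors were computed and edgeR 4.0.16 was run (quasi-likelihood, all groups in 1 fit, no covariate, Benjamini-Hochberg over all 19286 genes), which was tested on simulated data. Log2 CPM used a prior count of 2. Lengths, 3′UTRs and coordinates came from GENCODE M21 (GRCm38). Named members were the catalytic subunits with Psmb10, Psme1 and Psme2, per comparison the members with the smallest p in each direction, and the highest and lowest per length; 8 seed-match holders and library extremes were added after their values were seen. Members, gene lists and roles were chosen with earlier results of these data known. Alternatives were DESeq2 1.42.0, limma 3.58.1 on the deposited log2 values, RLE factors, no filter, processing group, replicate block, GC and length trends, 2 groups alone, old control replicates 5 and 6 as 1 library, and each library left out. Depth was 26653511 to 38908947 reads, and intervals cover the spread between libraries.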

Additional observations from a re-analysis of the deposited data

Results flagged for a closer look

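For each member and group the highest and lowest library were compared with the rest by Dixon's criterion. In 12 of 135 combinations (8.89%, where chance gives about 1 in 20) a single library stood apart from its group, in log2 CPM as follows. Old anti-miR-mix replicate 1 was the highest of its group for Psmf1 (5.24, others 5.02 to 5.09), Psma5 (3.91, others 3.48 to 3.64), Psmd13 (6.23, others 5.89 to 6.01) and Psmb3 (4.03, others 3.53 to 3.73). Young replicate 1 was the highest for Psma5 (3.78, others 3.56 to 3.62) and Psmd13 (6.06, others 5.99 to 6.01). Young replicate 2 was the highest for Psmd14 (6.22, others 6.08 to 6.12) and Psmd6 (6.04, others 5.92 to 5.96). Old control replicate 4 was the lowest for Psmd14 (6.07, others 6.15 to 6.17) and Psmd8 (6.03, others 6.13 to 6.18). Young replicate 4 was the lowest for Psme1 (4.47, others 4.62 to 4.68), and old control replicate 3 was the lowest for Psmb1 (6.35, others 6.41 to 6.43). Psma5 and Psmd13 were both high in the same 2 libraries, which carry processing group 1. Old control replicate 1, also of that group, was the highest of the old controls for both (3.77 and 6.10). Old control replicate 2 of that group was the second lowest of the old controls for both (3.36 and 5.92). The cause was not tested.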

How the results depend on the processing

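The count of members called was 0 in both directions in each comparison under most settings. The exceptions were limma on the deposited log2 values, where 1 member was lower with age (Psmd11), and single libraries left out of old anti-miR-mix against young, where the count of higher members ranged from 0 to 1 (Psma8 without old anti-miR-mix replicate 1, Psme1 without replicate 2 or 7); the cause was not tested. Of the members with the smallest p in each comparison, Psmb8, Psmb9, and Nfe2l2 and Uba6 where called, none reversed; the other genes given with a fold change were not recomputed one by one. Over all alternatives the members' median log2 fold change stayed between -0.0065 and 0.016 with age, between -0.033 and 0.014 with the inhibitors, and between -0.045 and 0.00061 against young, and each differed from the reported median by less than the SD between libraries of the members' mean (0.042).

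The count of all genes called depended more on the setting. With processing group as a factor it was 371, 9 and 1200 genes in the 3 comparisons (514, 129 and 1196 without), and members called stayed at 0. Outside the members, Uba6 lost its call with age when processing group was a factor and old control replicates 5 and 6 were 1 library (-0.23, edgeR adjusted p 0.0864), and Nfe2l2 lost its call with the inhibitors with processing group as a linear term (0.36, edgeR adjusted p 0.0609), with old control replicates 5 and 6 as 1 library (0.36, 0.122) and with the 2 groups alone (0.37, 0.0693). The deviations of libraries with the same replicate number correlated weakly at most (6 of 18 pairs over 0.1, range -0.17 to 0.21). In 11 of 36 cases a library correlated best with its own number among the 6 or 7 libraries of another group. That is more often than an even choice would give. Whether equal numbers share an origin was not tested, and the numbers were not taken as pairs. With the replicate block 0 members were called, the median with age was 0.0044, and Psmb8 passed against young (0.59, edgeR adjusted p 0.0210). Depth limited Psma8 most, with 3 to 21 reads per library.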
